A study of Mus musculus with 6 samples.

Results

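10 genes that hold back the growth kinase complex mTORC1, or pass its on signal, were followed in AE9a leukemia cells with and without Ddit4. They were the stress-induced inhibitor Ddit4 and its relative Ddit4l, the sestrins Sesn1, Sesn2 and Sesn3, the tuberous sclerosis genes Tsc1 and Tsc2, the small GTPase Rheb, and the mTOR-binding inhibitors Deptor and Akt1s1. They were chosen by gene name from the count table, and all 10 of 10 names were found among its 55421 genes. The RNA-seq libraries came from bone marrow leukemia cells of C57BL/6 mice. AE9a, a truncated splice form of the AML1-ETO fusion protein of acute myeloid leukemia, had been brought by a GFP-marked retrovirus into c-Kit+ bone marrow cells of young adult donors that were wild type (Ddit4+/+) or deficient in Ddit4 (Ddit4-/-). Cells of irradiated recipients that developed leukemia were named AE9a-Ddit4+/+ (wild type here, 3 libraries) and AE9a-Ddit4-/- (knockout, 3 libraries). By design all 6 libraries share the AE9a vector, irradiated hosts and, per the labels, culture in IMDM with serum. In the study's primary transplants fewer than 3 AE9a-Ddit4-/- recipients developed leukemia, while most AE9a-Ddit4+/+ recipients did. The knockout libraries may thus share a founder leukemia, and genotype and founder cannot be told apart. Whether each library stands for its own mouse, and whether cells were sorted for GFP before RNA was taken, is not given in the sources used here. Thus n counts libraries, and p values need not measure the spread between mice.

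mTORC1 drives protein synthesis and growth when nutrients, oxygen and growth factors are plentiful. Rheb bound to GTP switches the complex on at the lysosome, and the Tsc1-Tsc2 complex turns Rheb off. Ddit4, induced by low oxygen, glucocorticoids and lack of amino acids, releases Tsc2 from its inhibitory adaptors, the sestrins block the amino acid branch by binding the GATOR2 complex, and Deptor and Akt1s1 (PRAS40) bind the mTOR complex itself. In blood stem cells and leukemia this pathway is known for setting the balance between quiescence and growth.

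Library totals ran from 62141558 to 72717681 counts, and levels are given as CPM (counts scaled to a TMM-adjusted library total of 1000000) with the SD over libraries. The genotypes also differed across whole libraries. Mitochondrially encoded genes took 5.03% to 7.90% of wild-type and 11.31% to 16.45% of knockout counts. Of 7 markers of the AE9a leukemia label 4 were higher in knockout libraries (summed level 573.5 to 1401 against 2336 to 2497 CPM). Runx1t1, the mouse gene of the ETO part, rose from 11.9 ± 5.83 to 139 ± 67.9 CPM, Kit from 24.7 ± 8.92 to 411 ± 103 CPM and Ptprc from 108 ± 56.5 to 578 ± 111 CPM (SD, n = 3 each). Runx1 (152 to 221 CPM), Spi1 (169 to 115 CPM) and Mpo (488 to 456 CPM) did not pass an edgeR adjusted p of 0.05. Spi1 and Mpo thus had lower means in knockout libraries. Summed erythroid markers lay at 6799 to 14870 CPM in wild-type and 249 to 726 CPM in knockout libraries (8 of 10 lower), and neutrophil markers at 6838 to 10550 and 956 to 4249 CPM (4 of 8 lower). Sums were higher in AE9a-Ddit4-/- libraries for markers of megakaryocytes and platelets (101 to 168 against 2085 to 2754 CPM, 5 of 7 higher, 1 lower), mast cells and basophils (257 to 290 against 1168 to 1841 CPM, 3 of 6 higher), B cells (0.959 to 4.70 against 63.9 to 127 CPM, 6 of 6 higher, Ms4a1 at 0 in all wild-type libraries), T and NK cells (9.95 to 47.6 against 78.2 to 98.7 CPM, 6 of 7 higher, Trac and Klrb1c at 0 there) and stroma and endothelium (6.25 to 9.91 against 158 to 191 CPM, 4 of 7 higher). Monocyte and macrophage markers overlapped (167 to 347 and 114 to 386 CPM, 1 of 6 higher). Markers counted as higher or lower had an edgeR adjusted p below 0.05. Of all genes tested, 19.4% were higher and 10.7% lower in knockout libraries by that rule. The Y-linked gene Ddx3y stood at 88.2 to 125 CPM in knockout and at most 0.0774 CPM in wild-type libraries, and Xist at 20.3 to 129 against 566 to 1032 CPM, so that genotype and sex of the cells cannot be told apart. The part of these differences in the results was not tested, and in bulk samples fewer cells of a type and less RNA per cell cannot be told apart.

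Of the 10 genes, 9 passed the filter on low counts (no library under 39 counts for any of them), and 5 of these had an adjusted p below 0.05 in the edgeR quasi-likelihood test across all 18375 genes tested, the threshold used throughout. Sesn3, Deptor, Akt1s1 and Sesn1 were higher and Ddit4 was lower in AE9a-Ddit4-/- cells, while Sesn2, Tsc1, Tsc2 and Rheb did not pass. The background is high in this comparison: 30.1% of all genes tested passed, 19.4% higher and 10.7% lower in AE9a-Ddit4-/- cells. The groups did not overlap in 6 of the 9 genes and in 50.1% of all genes tested. The median log2 fold change (AE9a-Ddit4-/- over AE9a-Ddit4+/+, as throughout) was 0.57 over the 9 genes and 0.04 over all genes tested. The plot of levels by library gives each value, and the plot of fold changes gives their intervals.

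**Figure D1:**
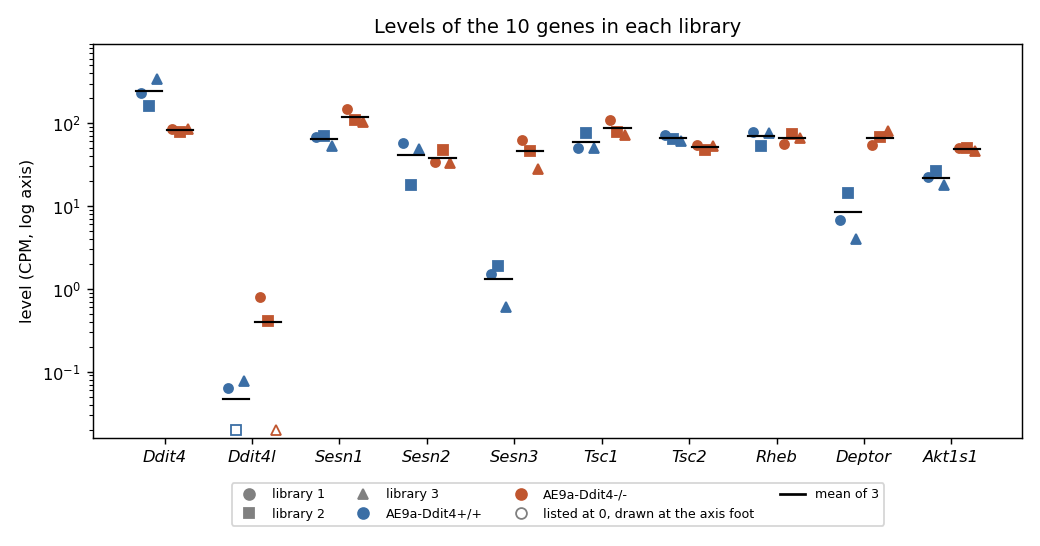
Levels of the 10 genes in CPM on a log axis, with AE9a-Ddit4+/+ libraries in blue, AE9a-Ddit4-/- libraries in orange, a marker shape per library number and a black line for the mean of 3. The colors lie apart for Ddit4, Sesn1, Sesn3, Tsc2, Deptor and Akt1s1 and overlap for Ddit4l, Sesn2, Tsc1 and Rheb.

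**Figure D2:**
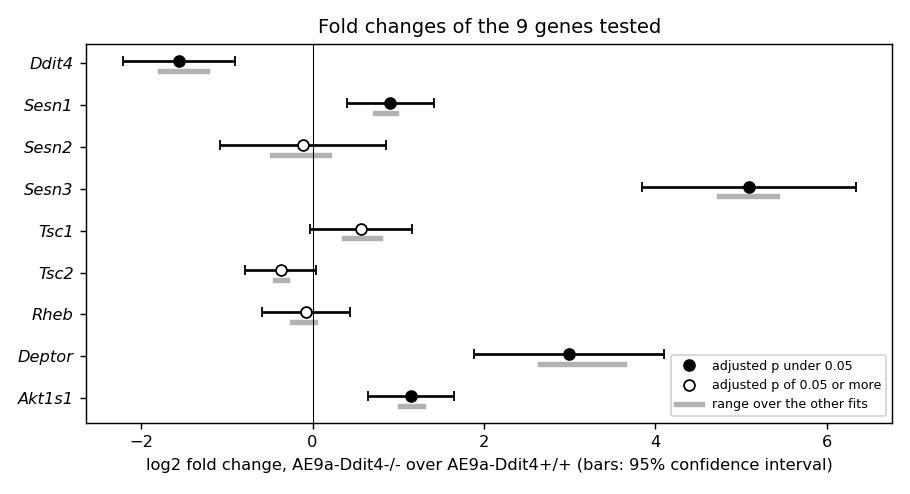
Log2 fold changes of the 9 genes tested, with 95% confidence intervals (black bars) and the range over the other fits (grey bars). Filled points passed an adjusted p of 0.05, and Sesn3 lies farthest from 0, at 5.09.

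Ddit4, the targeted gene, fell but its reads did not vanish. The study reported no DDIT4 protein in AE9a-Ddit4-/- leukemia cells by western blot, and RNA counts do not measure protein. Ddit4 (ENSMUSG00000020108) lies on chromosome 10 (59949669 to 59951834, minus strand, GRCm38, GENCODE M21), with 1 annotated transcript of 1755 bases in 3 exons of 138, 256 and 1361 bases. The protein is encoded in exons 2 and 3, by 196 and 491 bases. Wild-type libraries 1 to 3 gave 228, 161 and 342 CPM, against 84.9, 77.7 and 85.9 CPM in knockout libraries 1 to 3. Each knockout library lay below each wild-type library, and the spread was wide among wild-type libraries (CV 37.4%) and narrow among knockout libraries (CV 5.42%). The mean was 2.94-fold lower, 244 ± 91.1 against 82.8 ± 4.49 CPM (SD, n = 3 each), a log2 fold change of -1.56 (SE 0.28, 95% interval -2.21 to -0.90, edgeR adjusted p 0.00635). Of the other genes tested, 1049 had a lower log2 fold change than the gene the allele targets, and 743 of these passed the threshold. Which exons the allele lacks is not given in the sources used here, and counts per gene do not separate reads inside and outside the missing part.

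The sequence just upstream of Ddit4 is shown because the gene is a classical target of hypoxia-inducible factors, whose core site is ACGTG or GCGTG. It spans chr10:59951835-59952020 on the minus strand (186 bases, RefSeq window on GRCm38.p6) and ends where the GENCODE transcript begins, with both core matches in capitals.
Ddit4 upstream: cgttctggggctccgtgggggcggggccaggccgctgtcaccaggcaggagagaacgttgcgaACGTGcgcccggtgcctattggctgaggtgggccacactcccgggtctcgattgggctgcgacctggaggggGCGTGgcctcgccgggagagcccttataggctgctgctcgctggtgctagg
RefSeq places the start site at 59951770, and from there ACGTG lies at -187 and GCGTG at -115. Promoter windows of 300 bases (250 before the RefSeq start site) were found for 9 of the 10 genes, and Deptor had none. In 32851 windows of all genes, ACGTG on either strand was present in 19.6% and GCGTG in 32.4%. Among the 9 genes ACGTG was also found in Rheb, and GCGTG also in Tsc1, Tsc2, Ddit4l, Akt1s1 and Sesn1. The ATF4 composite TGATGNAAN (3.95% of all windows) was found in none of the 9. These matches describe letters and no binding was measured.

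Ddit4l, the close relative that acts on the same pathway and is known mainly from muscle, was at the edge of detection. The gene lies on chromosome 3 (137621612 to 137628333, plus strand). It had 4, 0 and 5 counts in AE9a-Ddit4+/+ and 49, 25 and 0 counts in AE9a-Ddit4-/- libraries. With a limit of 12 counts (3 fragments, since low values pile up at multiples of 4), which is 0.165 to 0.193 CPM, knockout libraries 1 and 2 lay above the limit and the other 4 at or under it. The groups overlapped, and the low-count filter removed the gene from the reported fit. In the fit without that filter its log2 fold change was 3.57 (edgeR adjusted p 0.0825), a value that depends on the prior count.

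The genes beside Ddit4 were read as well, since they share its stretch of chromosome. Of 34 annotated genes within 1000 kb, 20 were tested. By edgeR 6 of them rose and 0 fell in knockout cells (3 fell at an unadjusted p below 0.05, and 2 by DESeq2), a share near the 30.1% of all genes tested. Their median log2 fold change was -0.18, against 0.04 over all genes tested. The closest tested gene at the end of Ddit4, Dnajb12, a cochaperone, stood at 78.4 ± 13.8 and 54.9 ± 5.42 CPM (log2 fold change -0.51, edgeR adjusted p 0.0910). On the start site side Anapc16, a subunit of the anaphase-promoting complex, stood at 48.0 ± 6.16 and 47.6 ± 13.4 CPM (-0.01, edgeR adjusted p 0.970).

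The 6 neighbors that rose all had low wild-type levels, with means of 0.0566 to 5.04 CPM. P4ha1, a collagen prolyl hydroxylase subunit induced by low oxygen, reached the highest level, from 5.13, 6.82 and 3.16 to 64.2, 48.2 and 45.0 CPM (log2 fold change 3.38, edgeR adjusted p 0.000824). Spock2, a matrix proteoglycan, rose from 0.396 ± 0.321 to 23.7 ± 3.11 CPM (5.89, edgeR adjusted p 0.000891) and Cdh23, a cadherin, from 2.07 ± 1.41 to 14.0 ± 2.50 CPM (2.76, edgeR adjusted p 0.00943). The remaining ones were Oit3, Chst3, a chondroitin sulfotransferase, and Gm26947. Oit3 passed in 1 of 6 fits that left out a library each, with an adjusted p of up to 0.145, and Chst3 did not pass without AE9a-Ddit4+/+ library 1 (adjusted p 0.0529). In wild-type libraries Chst3 and Gm26947 were at or under the limit of detection. Their knockout means lay 16.2-fold and 25.1-fold above the upper value of that limit, 0.193 CPM. Single libraries lay lower, since knockout libraries 1 to 3 gave 3.73, 0.856 and 4.77 CPM for Chst3 and 6.33, 5.43 and 2.75 CPM for Gm26947.

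**Figure D3:**
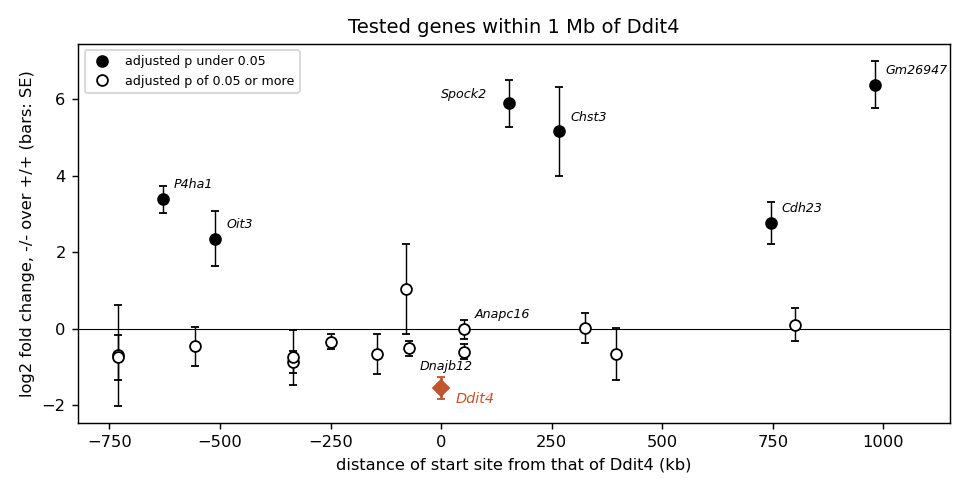
Log2 fold change (points, bars are SE) of the 20 tested genes within 1000 kb of Ddit4 against the distance of their start sites from that of Ddit4, with Ddit4 in orange and filled points past an adjusted p of 0.05. Higher genes lie 154 kb or more away, and fitted values of Chst3 and Gm26947 depend on the prior count.

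Of the 3 sestrins, Sesn3 and Sesn1 rose and Sesn2 did not pass. Sesn3, a FoxO-induced sestrin, was the most raised of the 10 genes. Sesn3 (ENSMUSG00000032009, plus strand of chromosome 9, 14275067 to 14333101) gave 1.52, 1.87 and 0.603 CPM in the wild-type and 62.1, 46.0 and 28.3 CPM in the knockout libraries. These rest on 96, 127 and 39 counts against 3866, 2797 and 2079 counts, and the groups did not overlap. The rise was 34.1-fold, from 1.33 ± 0.655 to 45.5 ± 16.9 CPM (SD, n = 3 each), with a log2 fold change of 5.09 (SE 0.53, 95% interval 3.84 to 6.34, edgeR adjusted p 0.000891). All 6 B cell markers and 6 of 7 T and NK cell markers rose in the same libraries. So did 5 of 7 megakaryocyte and platelet markers (1 was lower) and 3 of 6 mast cell and basophil markers. Stroma and endothelium and the leukemia label each had 4 of 7 markers higher. Over all genes tested the share higher was 19.4%. The part of any of these marker groups in the rise of Sesn3 was not tested.

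The sequence upstream of Sesn3 is shown because Sesn3 was the most raised gene and its window held the RUNX core TGTGGT, the element read by the DNA-binding part that AE9a retains. It spans chr9:14276051-14276300 on the plus strand (250 bases before the RefSeq start site, RefSeq window on GRCm38.p6), and the match, on the reverse strand at -234, is in capitals.
Sesn3 upstream: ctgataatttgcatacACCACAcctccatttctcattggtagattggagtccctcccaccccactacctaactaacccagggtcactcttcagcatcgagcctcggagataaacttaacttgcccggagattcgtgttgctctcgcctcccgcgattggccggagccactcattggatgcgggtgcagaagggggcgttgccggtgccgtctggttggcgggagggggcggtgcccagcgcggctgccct
TGTGGT on either strand was present in 16.8% of all windows and, among the 9 genes with a window, in that of Sesn3. The FoxO core GTAAACA, in 3.65% of all windows, was absent from this window and found in Sesn1, 23 bases after a start site on the reverse strand. GENCODE also annotates Sesn3 starts farther upstream, at 14275067, which the window does not cover. By design both genotypes carry AE9a, but the share of cells carrying it is not known, and no binding was measured here either.

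Sesn1, the p53 and FoxO target among the sestrins, rose less. Sesn1 (ENSMUSG00000038332, plus strand of chromosome 10, 41809935 to 41908424) gave 68.3, 70.2 and 53.5 CPM in the wild-type and 149, 108 and 103 CPM in the knockout libraries. All knockout libraries lay above all wild-type libraries, and knockout library 1 stood apart from the other two. The means were 64.0 ± 9.14 and 120.0 ± 24.9 CPM, 1.87-fold higher (log2 fold change 0.91, SE 0.22, 95% interval 0.40 to 1.41, edgeR adjusted p 0.0179). Without AE9a-Ddit4+/+ library 3 the value was 0.79 with an adjusted p of 0.0690.

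Sesn2, the leucine-binding sestrin that ATF4 induces, did not pass the test. It lies on chromosome 4 (132492032 to 132510501, minus strand). It gave 57.1, 17.8 and 48.6 CPM in the wild-type and 34.3, 47.1 and 32.8 CPM in the knockout libraries. The knockout libraries lay between the low wild-type library 2 and the other two. The log2 fold change was -0.11 (SE 0.41, 95% interval -1.08 to 0.85, edgeR adjusted p 0.858), with an upper bound just under the value of Sesn1, and the sign turned without wild-type library 1 (0.20) or 3 (0.02).

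Per length, as CPM per kb of annotated exon, the 3 sestrins summed to 33.7, 22.9 and 27.5 in wild-type and 51.2, 43.7 and 37.3 in knockout libraries. The sum thus lay higher in each knockout library, and Sesn1 was the main sestrin in 5 of 6 libraries. Its share of the sum was 50.9%, 77.1% and 48.9% in wild-type and 72.8%, 62.1% and 69.7% in knockout libraries, which overlap. Sesn2 held 48.8%, 22.4% and 51.0% against 19.3%, 31.0% and 25.3%, and in wild-type library 3 it led. Sesn3 went from 0.325% ± 0.198 to 6.60% ± 1.51 of the sum, so that the sestrin with the largest fold change remained the least abundant of the 3.

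**Figure D4:**
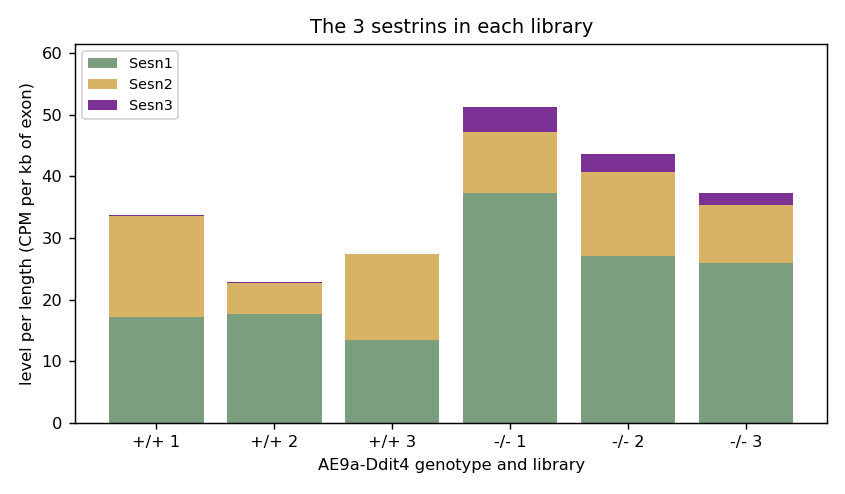
Stacked bars of Sesn1, Sesn2 and Sesn3 in CPM per kb of exon, a bar per library. Sesn3 is barely visible in the 3 AE9a-Ddit4+/+ bars and forms the top 4.97% to 7.94% of the AE9a-Ddit4-/- bars.

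The Tsc genes and Rheb, the switch that Ddit4 acts on, did not pass the test. Tsc1, the scaffold of the complex (chromosome 2, 28641228 to 28691167, plus strand), gave 50.0, 75.6 and 50.2 CPM in the wild-type and 109, 78.8 and 72.0 CPM in the knockout libraries. Wild-type library 2 reached into the knockout range. The log2 fold change of 0.57 (SE 0.25, 95% interval -0.03 to 1.16, edgeR adjusted p 0.134) did not pass, and without wild-type library 2 it was 0.79 with an adjusted p of 0.0492.

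Tsc2, the GTPase-activating subunit (chromosome 17, 24595816 to 24632630, minus strand), gave 72.5, 65.1 and 60.3 CPM in the wild-type and 53.7, 46.7 and 52.7 CPM in the knockout libraries. The groups did not overlap, and the log2 fold change of -0.37 (SE 0.18, 95% interval -0.78 to 0.04, edgeR adjusted p 0.156) did not pass. Tsc2 shares 693 exon bases (7.20% of its exons) with Pkd1 on the opposite strand (log2 fold change 0.15, adjusted p 0.781), and without knowledge of strand use their reads there cannot be told apart. The ratio of Tsc2 to Tsc1 per length was 1.78, 1.06 and 1.48 in wild-type and 0.605, 0.729 and 0.901 in knockout libraries, so that Tsc2 exceeded Tsc1 in each wild-type library and fell short of it in each knockout library. This ratio was not tested.

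Rheb, the GTPase they control (chromosome 5, 24802823 to 24842624, minus strand), gave 77.8, 53.1 and 76.2 CPM in the wild-type and 56.1, 74.3 and 65.5 CPM in the knockout libraries. The groups lay over each other. The log2 fold change was -0.08 (SE 0.22, 95% interval -0.59 to 0.43, edgeR adjusted p 0.810), and its sign turned without wild-type library 1 (0.01) or knockout library 1 (0.02).

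Both inhibitors that bind the mTOR complex rose. Deptor (ENSMUSG00000022419, plus strand of chromosome 15, 55112317 to 55259271) gave 6.77, 14.5 and 4.02 CPM in the wild-type and 54.3, 67.0 and 79.3 CPM in the knockout libraries. Even the highest wild-type library lay far below the lowest knockout library. The mean rose 7.94-fold, from 8.42 ± 5.41 to 66.9 ± 12.5 CPM (log2 fold change 2.99, SE 0.48, 95% interval 1.88 to 4.10, edgeR adjusted p 0.00396). Without wild-type library 2, the highest of its group, the log2 fold change was 3.63. The median log2 fold change of the other well-expressed genes on chromosome 15 was 0.39 (343 genes with an average log2 CPM above 4), against -0.17 over all 8218 such genes, and it lay between -0.44 and -0.13 on the chromosomes of the other 8 genes tested. Deptor shares 303 exon bases (3.41%) with Gm9920 on the opposite strand (log2 fold change 3.30, edgeR adjusted p 0.0508), a gene of 0.219 and 2.18 CPM.

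Akt1s1, which holds back mTORC1 through raptor until AKT phosphorylates it, rose less than Deptor, with no overlap of the groups. Akt1s1 (ENSMUSG00000011096, plus strand of chromosome 7, 44848991 to 44855421) gave 22.1, 26.1 and 17.9 CPM in the wild-type and 50.3, 49.5 and 46.6 CPM in the knockout libraries. The groups lay clearly apart, with a mean of 22.0 ± 4.11 against 48.8 ± 1.96 CPM. The 2.22-fold rise had a log2 fold change of 1.15 (SE 0.21, 95% interval 0.65 to 1.65, edgeR adjusted p 0.00686). Akt1s1 shares 89 exon bases (2.90%) with Tbc1d17 on the opposite strand, which rose as well (log2 fold change 1.06, edgeR adjusted p 0.0376).

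Per length, the order of the 10 genes was led by Ddit4 in both genotypes, at 139 ± 51.9 CPM per kb in wild-type and 47.2 ± 2.56 in knockout libraries. Sesn1 followed (16.1 ± 2.30 and 30.1 ± 6.25). Next came Sesn2, Rheb, Akt1s1, Tsc2 and Tsc1 in wild-type libraries, between 11.9 ± 5.95 and 4.95 ± 1.25 CPM per kb, and the libraries of each gene from Sesn1 to Tsc1 overlapped those of the next in that order. In knockout libraries Akt1s1 came next at 15.9 ± 0.639, apart from the others, and Sesn2, Rheb, Deptor, Tsc1 and Tsc2 lay between 11.0 ± 2.27 and 5.31 ± 0.394, overlapping from each to the next except for Tsc1 and Tsc2. Deptor went from 0.949 ± 0.609 to 7.53 ± 1.41, Sesn3 from 0.0872 ± 0.0429 to 2.98 ± 1.11, and Ddit4l was last in both. Ddit4 exceeded the sum of the sestrins 3.85-, 4.02- and 7.09-fold in wild-type libraries, and the ratio was 0.944, 1.01 and 1.31 in knockout libraries. Orders per length depend on the length used, here all annotated exons of a gene. These cover 7721 bases for Rheb and 3982 for Sesn1, against 4046 and 3809 in their longest transcripts. The order by longest transcript is not given here and can differ.

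AE9a-Ddit4+/+ library 2 was the wild-type library nearest to the knockout mean for 6 of the 9 genes tested, namely Ddit4, Sesn1, Sesn3, Tsc1, Deptor and Akt1s1. The share of all genes tested for which this library was nearest is not given here. By another measure, correlation of log2 CPM across all genes tested, library 2 reached 0.831, 0.822 and 0.846 with knockout libraries 1 to 3. Wild-type libraries 1 and 3 reached 0.791 to 0.828. Library 2 was also the wild-type library with the most mitochondrial counts, 7.90%. As a description of shape, the genes with the profile nearest to each of the 5 called genes were sought among 11289 genes by the root mean square difference of centered log2 CPM over the 6 libraries. For Ddit4 these were 3830406C13Rik (0.118), Ndufa5 (0.153) and Rbm43 (0.164), and for Sesn1 9930021J03Rik (0.0659), 4833418N02Rik (0.0671) and Ubn2 (0.0878). Sesn3 was nearest to Atp10a (0.228), H2-Q5 (0.276) and Rhoc (0.282), Deptor to Trim44 (0.200), Kcnk6 (0.205) and Mctp1 (0.213), and Akt1s1 to Brd1 (0.0622), Heatr5a (0.0943) and Fkbp1b (0.1002).

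The other genes of the pathway were read from 11 lists. Of 114 genes found in the table, 110 were tested, of which 18 rose and 9 fell in knockout cells (24.5%, against the 30.1% background), with a median log2 fold change of -0.06. Of these 27 calls, 17 held in all 6 fits that left out a library each, and 10 were lost in at least 1 of them. In the following paragraphs each p is edgeR's adjusted p, and the 10 calls are given as lost when they are named. Called shares were 30.0% (Tsc and Rheb partners), 33.3% (GATOR1), 0.0% (GATOR2), 28.6% (KICSTOR and sensors), 16.7% (Rag group) and 18.2% (AMPK). They were 28.6% (inducers), 25.0% (shared inducers), 30.8% (kinases), 33.3% (ubiquitin ligases) and 12.5% (mTOR partners), against 30.1%. DESeq2 called 4348 of 18375 genes higher and 2749 lower. The share of all genes at an unadjusted p is not given here.

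Around the Tsc complex and Rheb, 1 of 10 genes was higher and 2 were lower (median -0.21). Both lower genes encode adaptors that hold phosphorylated Tsc2, Ywhah (354 to 156 CPM, log2 fold change -1.18, adjusted p 0.0187) and Ywhab (336 to 174 CPM, -0.95, adjusted p 0.0178). A relative of the same adaptor family, Sfn, was higher (26.2 to 53.7 CPM, 1.04, adjusted p 0.0437). All 3 calls were lost without AE9a-Ddit4+/+ library 1 (adjusted p up to 0.0585 for Ywhab, and over all libraries up to 0.0648 for Ywhah and 0.135 for Sfn). Txnip, a partner of Ddit4, did not pass (1290, 1841 and 4076 against 1217, 911 and 576 CPM, -1.41, adjusted p 0.0547).

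In the amino acid branch, the GATOR1 complex, which turns the Rag GTPases off, had 1 of 3 subunits lower. This was Nprl3 (43.6 to 23.7 CPM, -0.88, adjusted p 0.0493, up to 0.159 and lost in 5 of 6 fits without a library), while Depdc5 (-0.69, adjusted p 0.0640) and Nprl2 (0.00, adjusted p 0.996) did not pass. Of the 5 subunits of GATOR2, the complex that sestrins bind, 0 passed in edgeR (2 lower at an unadjusted p below 0.05, and 0 by DESeq2). Wdr59 (-0.70), Seh1l (-0.45), Sec13 (-0.32), Mios (-0.30) and Wdr24 (-0.17) had adjusted p values of 0.108 to 0.562. Of 7 tested genes of KICSTOR and the amino acid sensors, Castor2, an arginine sensor (1.35 to 18.4 CPM, 3.76, adjusted p 0.00520), and Bmt2, an S-adenosylmethionine sensor (34.5 to 76.1 CPM, 1.14, adjusted p 0.0327), were higher, the latter lost in 4 of 6 fits with adjusted p up to 0.106. In the same list 0 were lower by edgeR, but 3 were at an unadjusted p below 0.05 (Kptn -1.29, Itfg2 -0.88 and Castor1 -0.76) and 3 by DESeq2. Among 12 genes of the Rag, Ragulator and folliculin group, Flcn, the GTPase-activating partner of RagC, rose from 44.0 to 233 CPM (2.40, adjusted p 0.00521), and Lamtor1, the Ragulator anchor, was lower (67.3 to 44.6 CPM, -0.59, adjusted p 0.0460), a call lost in all 6 fits without a library (up to 0.116). The medians of these last 2 lists were -0.26 and -0.44.

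The energy sensor AMPK, which activates Tsc2, had 1 of 11 genes higher and 1 lower (median -0.10). Prkab2, a regulatory subunit, rose from 5.15 to 19.6 CPM (1.93, adjusted p 0.00864). Prkaa1, a catalytic subunit, went from 69.5 to 27.3 CPM (-1.35, adjusted p 0.0226), and this call was lost in 4 of 6 fits without a library, with adjusted p up to 0.0804.

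Of 14 tested regulators that induce Ddit4 or sestrins, 3 were higher and 1 lower (median 0.04). Foxo1, an inducer of Sesn3 and Sesn1, gave 10.7, 7.21 and 3.44 CPM in the wild-type and 44.0, 37.7 and 24.4 CPM in the knockout libraries (2.32, adjusted p 0.00837). Epas1, a hypoxia-inducible factor, was barely detected in wild-type libraries (a mean of 0.110 CPM, against 2.20 CPM in knockout libraries, 4.29, adjusted p 0.0188, lost without library 1 of either genotype, up to 0.0635), and Cebpb went from 76.7 to 164 CPM (1.09, adjusted p 0.0245, lost in 3 of 6 fits, up to 0.0800). Trp53, the inducer of Sesn1 and Sesn2, gave 165, 54.6 and 129 CPM against 29.6, 44.6 and 57.0 CPM, which overlap (-1.41, adjusted p 0.0420, lost in 5 of 6 fits, up to 0.129). Hif1a (-0.23), Atf4 (0.55, adjusted p 0.125), Nr3c1 (0.04), the glucocorticoid receptor, and Foxo3 (0.05) did not pass.

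Of 16 genes that share inducers with Ddit4, 3 were higher and 1 lower (25.0%, against the 30.1% background, median 0.33). Egln3, a hypoxia-induced oxygen sensor, rose from 5.53 to 85.1 CPM (3.94, adjusted p 0.000775), Bnip3, a hypoxia-induced mitophagy receptor, from 5.49 to 37.6 CPM (2.78, adjusted p 0.00191), and Zbtb16, a glucocorticoid-induced gene, from 2.21 to 12.3 CPM (2.47, adjusted p 0.00322). Asns, the asparagine synthetase that ATF4 induces, fell from 59.9, 50.8 and 72.6 to 5.41, 16.0 and 4.35 CPM (-2.83, adjusted p 0.00667). The other 12 did not pass. They include Vegfa (0.45) and Ankrd37 (0.22), also hypoxia-induced, and Tsc22d3 (0.60), Fkbp5 (0.55) and Per1 (0.46), also glucocorticoid-induced. Trib3 (-0.47), Ddit3 (-0.28) and Chac1 (-0.22), also induced by ATF4, did not pass either.

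Kinases that phosphorylate Tsc2 or Akt1s1 had 4 of 13 genes higher and 0 lower in edgeR (30.8%, against the 30.1% background, median 0.27). At an unadjusted p below 0.05 in edgeR 2 were lower, and 0 by DESeq2. Among the higher genes were Pim2 (4.90 to 64.2 CPM, 3.71, adjusted p 0.000892), Pim3 (33.7 to 268 CPM, 2.99, adjusted p 0.00115) and Pim1 (300.1 to 647 CPM, 1.11, adjusted p 0.00501). Akt1 (381 to 283 CPM, -0.43, adjusted p 0.104) and Akt2 (122 to 93.0 CPM, -0.39, adjusted p 0.286) did not pass.

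Among 12 ubiquitin ligase and turnover genes, 2 were higher and 2 lower (median 0.07). Fbxw5, which targets Tsc2 for degradation, fell from 96.3 to 44.2 CPM (-1.13, adjusted p 0.00321), and Herc1, a ligase that binds Tsc2, from 296 to 154 CPM (-0.94, adjusted p 0.00816). Rbx1, a cullin ligase subunit, rose from 81.2 to 149 CPM (0.88, adjusted p 0.00858) and Stambpl1, a deubiquitinase, from 3.56 to 17.7 CPM (2.31, adjusted p 0.00665). In the mTOR complexes themselves 1 of 8 tested genes was higher and 0 lower by edgeR (2 lower at an unadjusted p below 0.05, Mlst8 and Mapkap1, and 2 by DESeq2). The higher gene was Prr5, a partner of the second mTOR complex (1.07 to 28.9 CPM, 4.75, adjusted p 0.00231). Mtor, the kinase, stood at 52.6 and 56.8 CPM (0.11, adjusted p 0.684), and Rptor (-0.50, adjusted p 0.167) and Mlst8 (-1.37, adjusted p 0.0582) did not pass either.

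**Figure D5:**
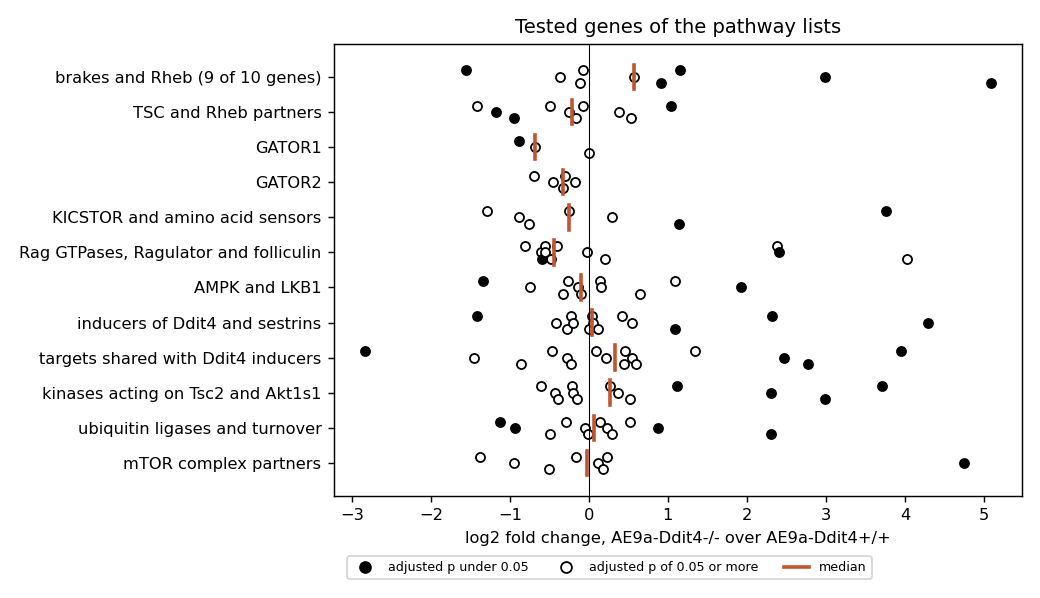
Log2 fold changes of the tested genes in each list, a point per gene (filled past an adjusted p of 0.05), with the list median as an orange bar. Medians lie between -0.69 (GATOR1) and 0.57 (the 9 genes of the top row).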

How the data were processed

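RNA-seq was performed on 3 AE9a-Ddit4+/+ and 3 AE9a-Ddit4-/- libraries, grouped by sample title. The authors deposited 1 table of counts per gene (whole numbers, not normalized), from NovaSeq paired reads. The sample labels name an mRNA kit and the methods a directional kit for rRNA-depleted RNA. The submitters' processing notes name GRCm38 and mm10, and aligner, counter, annotation and strand use are not given in the sources used here. Values at 4, 8 and 12 were 1.40 to 1.62 times as frequent as those at 2, 6 and 10, so fragments may have been counted repeatedly, and limits cover counting error only.

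From these counts, 27 symbols turned into dates were restored, filterByExpr kept 18375 genes, and edgeR 4.0.16 (R 4.3.3, TMM, robust glmQLFit and glmQLFTest, two-sided, genotype as the only term) was run on all 6 libraries with Benjamini-Hochberg adjustment over all genes tested. SE was derived from the fold change and the F statistic. GENCODE M21 (GRCm38) held 55240 of the 55421 identifiers and gave positions and exon lengths. Alternatives were other scalings, filters and thresholds, DESeq2 1.42.0, a replicate block and leaving out each library. The genes and lists were chosen with earlier results of these data known. Named are the 10 genes, up to 4 per list and direction with the largest change past the threshold (at least 10 counts in each library of the higher group), every gene of lists of 5 or fewer, neighbors of Ddit4 past the threshold and the nearest on each side, and the 3 most alike genes. Txnip and genes lower at an unadjusted p alone were named after their values were seen. So were the inducers, genes sharing inducers with Ddit4, leukemia label markers, AKT genes and mTOR partners that did not pass. Values of some genes that this rule names are not reported here.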

Additional observations from a re-analysis of the deposited data

How the results depend on the processing

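Replicate numbers recur in both genotypes, but same-numbered libraries did not deviate together (correlations of -0.165, -0.194 and -0.049), so they were not treated as pairs. With the replicate block, 2964 of all genes, 16 of the other pathway genes and 4 of the 10 genes passed (5535, 27 and 5 without it). Ddit4 was -1.49, Sesn1 0.90 (adjusted p 0.0510) and Sesn2 0.0068, a turned sign. An adjusted p below 0.01 left 2676 and 17 genes.

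Without a library each, all genes past the threshold ranged from 3840 to 6021, other pathway genes from 19 to 34, the 10 genes from 4 to 6, neighbors of Ddit4 from 4 to 6 and Ddit4 from -1.78 to -1.24. Sesn1 ranged from 0.73 to 0.98, Deptor from 2.65 to 3.63, Tsc1 from 0.37 to 0.79, Sesn2 from -0.47 to 0.20 and Rheb from -0.24 to 0.02. Turned signs were Sesn2 without AE9a-Ddit4+/+ library 1 (0.20) or 3 (0.02) and Rheb without library 1 of the wild type (0.01) or the knockout (0.0236). The cause was not tested. Ddit4, Sesn3, Deptor and Akt1s1 kept direction and call at 0.05 in all 15 other fits, and Sesn1 in 13. By longest transcript the Sesn3 share of sestrins was 0.527% and 10.26%. DESeq2 called 7097 genes. Higher genes made up 59.4% to 73.5% of calls (64.3% in the reported fit). Repeated counting leaves the depth behind low values, such as those of Ddit4l, unknown.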
